A study of Mus musculus with 6 samples.

Results

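The lysosomal gene set comprised 38 mouse genes that were chosen by symbol: 8 endopeptidases, 6 exopeptidases, 9 glycosidases, 3 sulfatases, 1 phosphatase, 5 lipid enzymes or activators, 5 proteins of the lysosomal membrane and 1 transcription factor. All 38 were found by Entrez identifier among the 20007 genes counted in 6 mouse RNA-seq libraries. The set was divided by known function into 6 genes that macrophages and osteoclasts express strongly (Acp5, Atp6v0d2, Ctsc, Ctsk, Ctss and Gpnmb, here called macrophage-type) and 32 genes expressed in most cells (ubiquitous). The division was made with earlier results of these data known, so contrasts between the kinds are descriptive. The libraries came from 3 cultured cell groups of KM mice, 2 libraries each, with no transgene or knockout named in the labels. CiSCs are Sertoli-like cells made from passaged embryonic fibroblasts with small-molecule compounds that the labels do not name. MSCs are Sertoli cells cultured from testes at postnatal day 60. MEFs are embryonic fibroblasts, and the labels of both MEFs and CiSCs give embryos of 13.5 days post coitum. The series asks how closely CiSCs resemble Sertoli cells in their transcriptome, and for lysosomal genes this gives 3 comparisons: CiSCs with MEFs, MSCs with MEFs, and CiSCs with MSCs. These comparisons share groups, so they are not independent of each other.

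Lysosomes are acidic organelles in which hydrolases break down proteins, glycans and lipids that arrive by endocytosis, phagocytosis and autophagy. Most soluble hydrolases are carried there by mannose 6-phosphate receptors, the lumen is acidified by the vacuolar proton pump (V-ATPase), and many of the genes are activated by transcription factors of the MiT/TFE family, among them TFEB. Sertoli cells engulf and digest residual bodies and dying germ cells, and macrophages are likewise rich in lysosomes and carry hydrolases, such as cathepsin S, that most other cells make little of.

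Each library held 19294671 to 20418587 counted reads, and 1 read was worth 0.0468 to 0.0543 CPM (read counts scaled to a common TMM library size), the unit of the levels below. Cell type markers differed widely between the groups. The 18 macrophage markers examined (among them Adgre1, Csf1r, Lyz2 and the C1q genes) summed to 34.8 and 53.1 CPM in CiSCs, 1611 and 1520.4 CPM in MSCs and 13228 and 21854 CPM in MEFs. None of the 18 was at 0 reads over both libraries of a group, and all 17 that could be tested were lower in CiSCs than in MEFs, lower in MSCs than in MEFs and lower in CiSCs than in MSCs. The shares of all genes tested called lower in these comparisons were 21.3%, 20% and 25.1%. The 12 Sertoli markers summed to 4851 and 4122 CPM in CiSCs, 6037 and 8931 CPM in MSCs and 94.99 and 105 CPM in MEFs and rested mainly on Clu, clusterin, which had 4734 and 4020.2 CPM in CiSCs, 4852 and 7529.9 CPM in MSCs, and 5.66 and 5.87 CPM in MEFs. Of the 10 that could be tested, 3 were higher in CiSCs than in MEFs (30%, against 19.6% of all genes tested). All 10 were higher in MSCs than in MEFs (against 22.5%), and 9 were lower in CiSCs than in MSCs (90%, against 25.1%). Sox9 and Inhbb did not pass in CiSCs over MEFs, and Fshr, Aard, Dmrt1, Gata4 and Amh had 0 to 10 reads over both CiSC libraries. The 7 Leydig cell markers summed to 3.72 and 2.57 CPM in CiSCs, 1360.3 and 1393 CPM in MSCs and 2.43 and 2.39 CPM in MEFs. The 12 fibroblast markers summed to 29468 and 29457 CPM in CiSCs, 39014 and 41743 CPM in MSCs and 24580.3 and 25822 CPM in MEFs, mainly the collagen genes Col1a1, Col1a2 and Col3a1. In MSCs over MEFs 3 of them were higher (25%, against 22.5% of all genes tested) and 5 lower (41.7%, against 20%). Among the lower were Thy1 (-7.52 ± 0.21) and Postn (-5.36 ± 0.20 on the log2 scale). In CiSCs over MEFs 4 were higher (33.3%, against 19.6%), among them Dcn (3.01 ± 0.16) and Lum (2.87 ± 0.22). The 2 lower in that comparison (16.7%, against 21.3%) were Thy1 (-2.49 ± 0.16) and Postn (-1.67 ± 0.17). The 6 endothelial markers summed to 3.15 and 3.42 CPM in CiSCs, 93.3 and 99.1 CPM in MSCs and 22.4 and 32.2 CPM in MEFs. In bulk RNA, fewer cells of a type and less RNA per cell cannot be told apart, and the part of macrophages in the lysosomal differences below was not tested beyond the marker levels given.

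The 38 lysosomal genes together made up 7208 and 6862 CPM in CiSCs, 15849.8 and 17133 CPM in MSCs and 17555 and 21817 CPM in MEFs. The mean summed level in CiSCs was 35.7% of that in MEFs, and the mean in MSCs was 83.8% of it. In CiSCs, ubiquitous genes stood at 38.5% of the MEF sum and macrophage-type genes at 3.12%. Of the macrophage-type genes only Ctsk, at 0.267 of its MEF mean, stood above the lowest ubiquitous gene, Lgmn, at 0.156. In MSCs the ubiquitous genes stood at 86.6% of the MEF sum and the macrophage-type genes at 51.1%. Levels per kilobase of merged exon, which allow genes of different length to be compared, placed the same few genes at the top of each group. Psap reached 390 CPM per kb in CiSCs, followed by Ctsd at 319, Lamp1 at 251 and Ctsb at 227 CPM per kb. In MSCs, Ctsd led with 960 CPM per kb, ahead of Psap at 849 and Ctsb at 612 CPM per kb. In MEFs the order was Ctsd at 1660, Ctsb at 877 and Psap at 866 CPM per kb, the last pair lying within the spread of the MEF libraries.

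**Figure D1:**
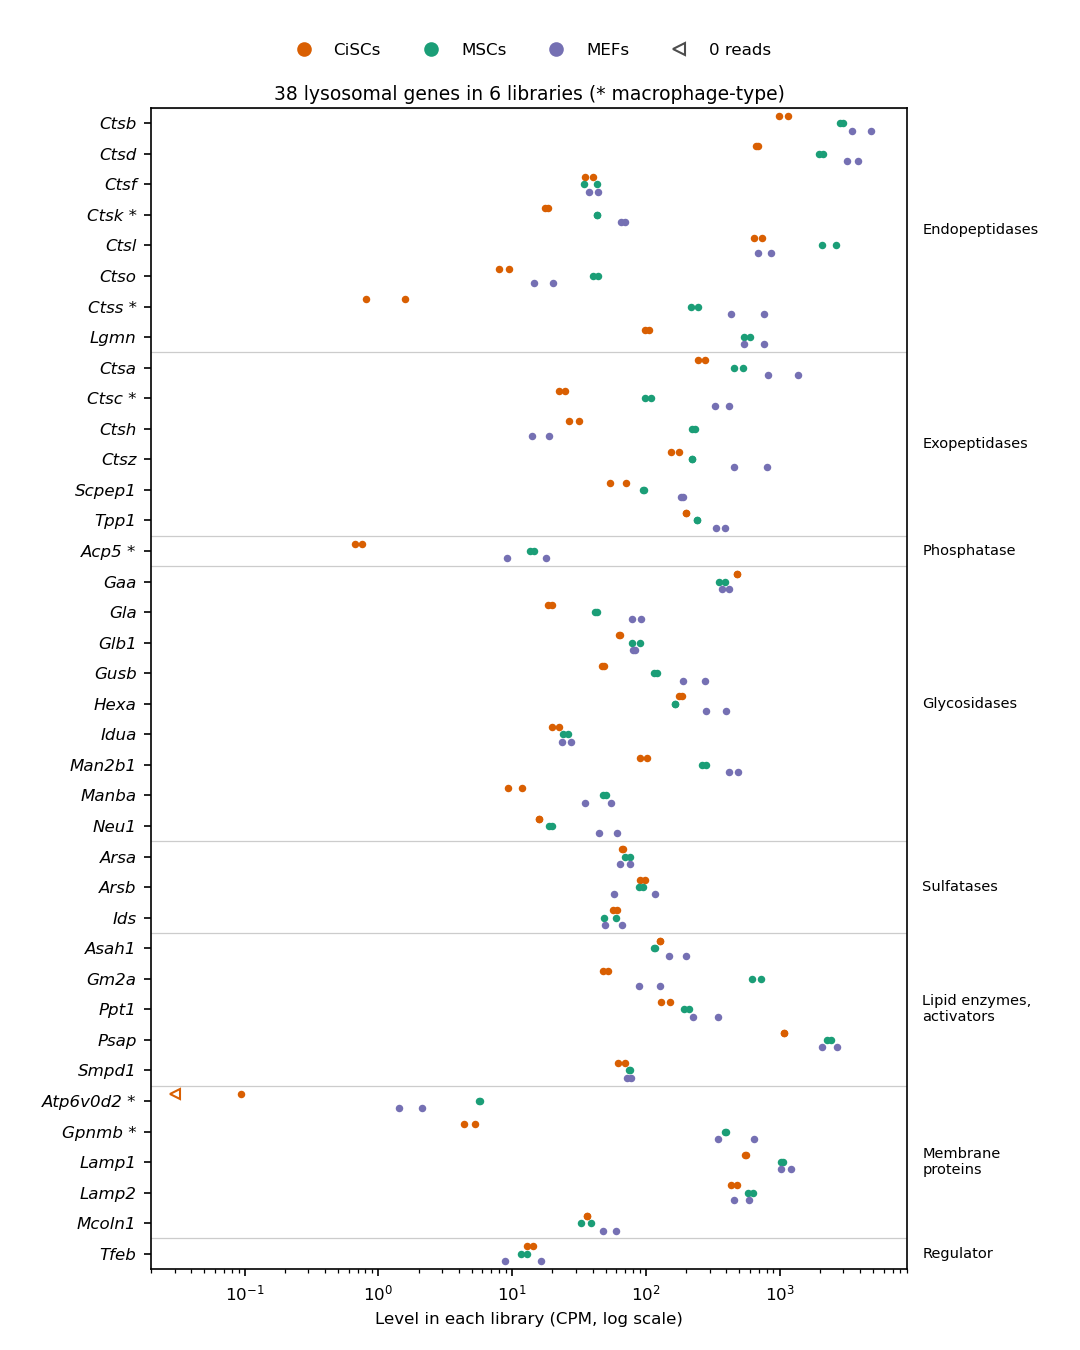
Level of each of the 38 lysosomal genes in every library, in CPM on a log axis, grouped by role; each point is 1 library, and an open triangle marks a library with 0 reads. CiSC points lie left of the MEF points for most peptidases and for all 6 macrophage-type genes (marked with an asterisk). For the 3 sulfatases the CiSC points lie inside the MEF range.

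In CiSCs compared with MEFs, lysosomal genes were mostly lower. Of the 38, 25 fell, 1 (Ctsh) rose and 12 did not pass the test (edgeR quasi-likelihood test, adjusted p under 0.05). Thus 65.8% of the lysosomal genes were called lower, where 21.3% of all 15272 genes tested were called lower and 19.6% higher (40.9% in either direction). The median log2 fold change over the 38 was -1.07, with a range of -8.95 to 0.83, and 20 genes fell by at least 2-fold, while the median over all genes tested was 0. Of the 25 lower calls, 20 held in each fit with 1 library left out. Without the first CiSC library, Ctso (adjusted p = 0.081, edgeR), Hexa, Ppt1, Mcoln1 and the rise of Ctsh (adjusted p = 0.109, edgeR) were lost. Without the second, Gm2a (adjusted p = 0.0539, edgeR), Hexa, Ppt1 and Mcoln1 were lost. Leaving out the first MEF library added 2 higher calls, Gaa and Arsb, and leaving out the second added Tfeb. A fit without 1 library leaves its group with a single one, which is assumed to vary like the other groups. The 2 MEF libraries differed by more than 2-fold in 1416 genes, against 477 in CiSCs and 415 in MSCs, so that p-values from a single MEF library do not cover the spread between MEF libraries.

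In MSCs compared with MEFs, the set moved in both directions. In all, 15 genes fell (39.5% of the 38, against 20% of all genes tested), 5 rose (Ctsl, Ctso, Ctsh, Gm2a and Atp6v0d2; 13.2%, against 22.5% of all genes), and 18 did not pass the test. Of all genes tested, 42.5% were called in either direction. The median log2 fold change was -0.15, with a range of -1.84 to 3.77. These lower calls depended on both MSC libraries: without either one of them, 4 of the 15 were still called, namely Ctsc, Scpep1, Gla and Neu1. Of the 5 higher calls, 4 held in every such fit, and Atp6v0d2 was lost without either MSC library (adjusted p = 0.109 and 0.108, edgeR, with log2 fold changes of 1.68 and 1.67). Without the first MEF library, Manba, Arsb and Lamp2 were also called higher, which made 8.

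In CiSCs compared with MSCs, 22 of the 38 were lower, which is 57.9%, against 25.1% of all genes tested (42.8% were called in either direction). The edgeR test called 0 lysosomal genes higher, against 17.7% of all genes, with 1 gene higher at an unadjusted p under 0.05 and 1 (Gaa) called higher by DESeq2. Gaa was also called higher with library totals as the only scaling, with these 2 groups fitted alone and without either MEF library. The median log2 fold change was -0.91, with a range of -7.58 to 0.36. Of the 22 lower calls, 19 held in each fit with 1 library left out, the exceptions being Ctsa, Scpep1 and Glb1. Across the 3 comparisons, 9 genes were called lower in each, 7 were lower in both comparisons of CiSCs but not called in MSCs over MEFs, and 5 were lower in both comparisons with MEFs but not called in CiSCs over MSCs. Another 9 (Ctsf, Gaa, Idua, Arsa, Arsb, Ids, Smpd1, Lamp2 and Tfeb) were called in none. These patterns across comparisons were not counted over all genes tested, so it cannot be said whether their numbers are unusual.

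**Figure D2:**
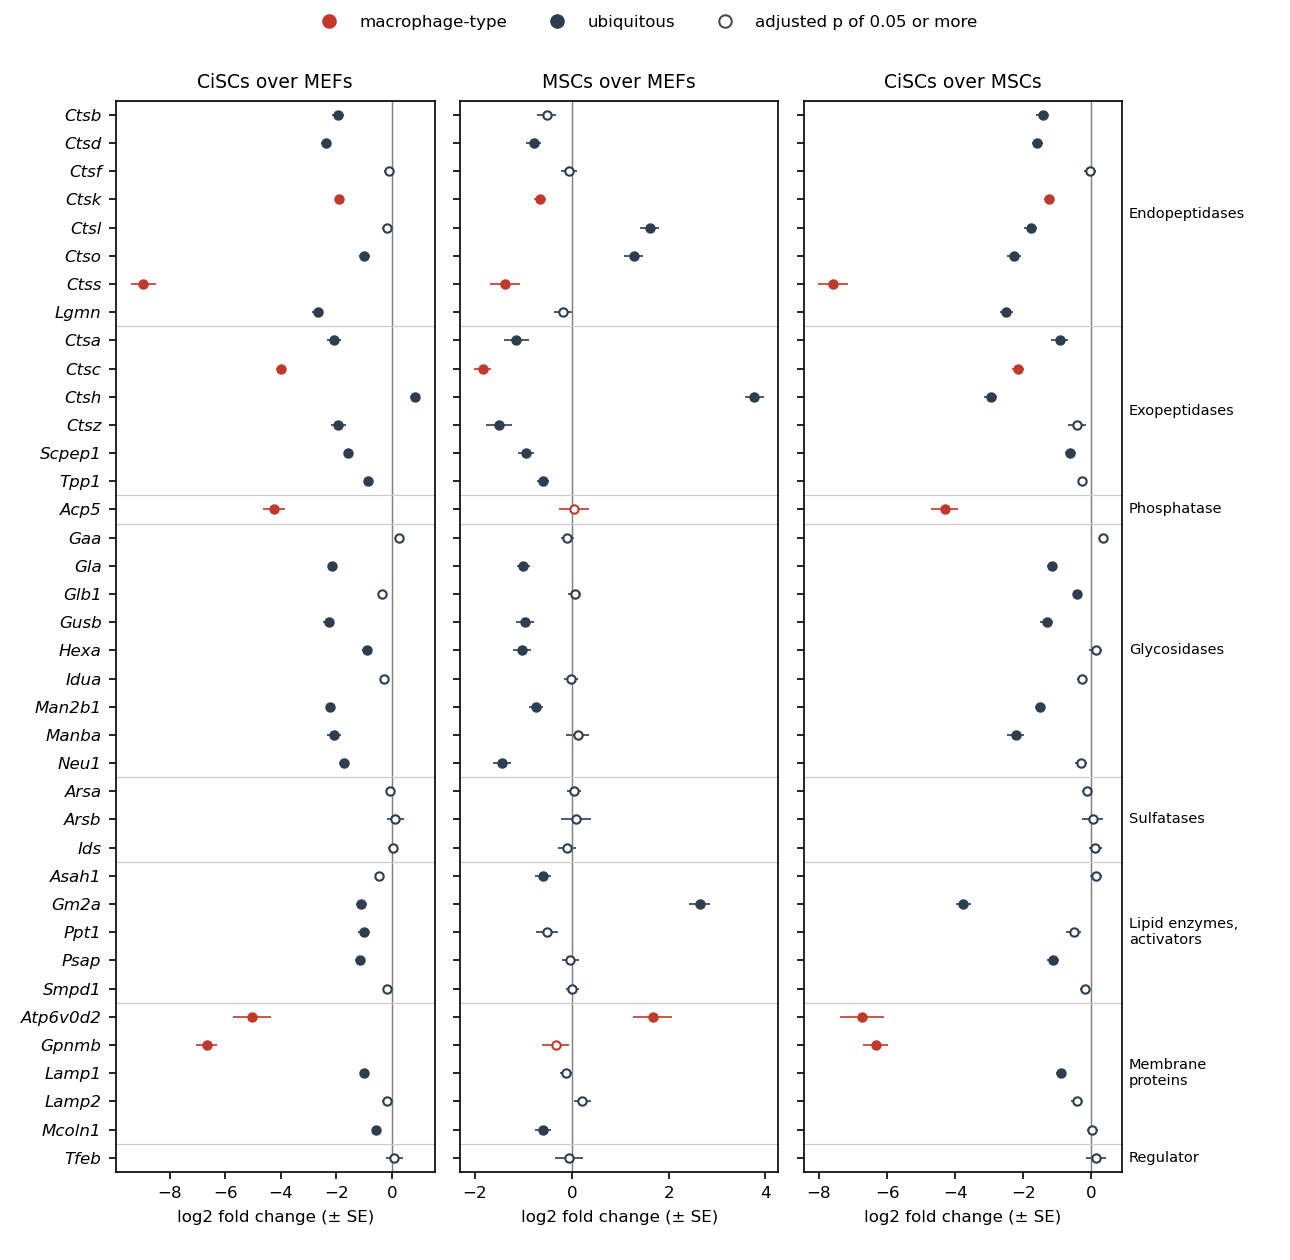
Log2 fold change of each lysosomal gene with its standard error in the 3 comparisons, grouped by role; filled points passed the test and open points did not. All macrophage-type genes but Ctsk lie farthest to the left in CiSCs over MEFs, from -8.95 (Ctss) to -3.99 (Ctsc), and Ctsk lies at -1.91, whereas in MSCs over MEFs the 6 lie on both sides of 0.

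All 6 macrophage-type genes were called lower in CiSCs than in MEFs and lower in CiSCs than in MSCs, although Atp6v0d2, with 2 reads in CiSCs, entered the test through its level in the other groups. Ctsk fell least of the 6 in both comparisons, and ubiquitous genes such as Lgmn fell further than Ctsk and, in CiSCs over MSCs, further than Ctsc. Ctss, cathepsin S, which trims the invariant chain of MHC class II molecules in antigen-presenting cells, had 0.811 and 1.59 CPM in CiSCs, 246 and 218 CPM in MSCs, and 433 and 766 CPM in MEFs. The 3 groups did not overlap, with CiSCs lowest by far and MEFs highest. Its log2 fold change was -8.95 ± 0.46 (SE) in CiSCs over MEFs (adjusted p = 3.24e-05, edgeR) and -7.58 ± 0.44 in CiSCs over MSCs (adjusted p = 4.39e-05, edgeR). Ctss was also lower in MSCs than in MEFs (-1.37 ± 0.31, adjusted p = 0.0138, edgeR), a call that was lost without either MSC library (adjusted p = 0.0869 and 0.113).

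Gpnmb, a transmembrane glycoprotein of lysosomes and melanosomes that lipid-laden macrophages make in quantity, had 4.39 and 5.29 CPM in CiSCs, 391 and 395 CPM in MSCs, and 345 and 642 CPM in MEFs. Here MSCs lay between the 2 MEF libraries, and CiSCs lay far below both groups. The log2 fold change was -6.67 ± 0.37 in CiSCs over MEFs (adjusted p = 4.22e-05, edgeR) and -6.34 ± 0.36 in CiSCs over MSCs (adjusted p = 4.2e-05, edgeR). In MSCs over MEFs it was -0.33 ± 0.28 (adjusted p = 0.381, edgeR), and among 13 alternatives it passed without the first MEF library alone (-0.74, adjusted p = 0.000674). Acp5, tartrate-resistant acid phosphatase, the histochemical marker of osteoclasts, showed the same arrangement at a lower level, with 0.668 and 0.749 CPM in CiSCs, 13.6 and 14.5 CPM in MSCs, and 9.21 and 17.9 CPM in MEFs. Its log2 fold change was -4.24 ± 0.40 in CiSCs over MEFs, -4.30 ± 0.40 in CiSCs over MSCs and 0.05 ± 0.31 in MSCs over MEFs, of which the last did not pass (adjusted p = 0.902, edgeR). Without the second MEF library Acp5 was called higher in MSCs (0.61, adjusted p = 0.0282).

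Atp6v0d2 encodes the d2 isoform of a V-ATPase subunit, which osteoclasts and some macrophages use. CiSCs had 2 reads over both libraries, MSCs had 211 and MEFs had 69, and it was the single member below the filter level in CiSCs. The level was 5.64 and 5.70 CPM in MSCs and 1.42 and 2.13 CPM in MEFs, higher in MSCs (1.67 ± 0.40, adjusted p = 0.017, edgeR; without either MSC library the adjusted p was 0.109 and 0.108). The ratio of MSC to CiSC levels was 120 by reads (95% exact interval 32.8 to 997), and that of MEF to CiSC levels was 37.4 (9.98 to 315). Both intervals cover counting error alone, and with 2 reads the fitted log2 fold changes of Atp6v0d2 in CiSCs depend on the prior count of the fit.

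The other pair of macrophage-type genes, Ctsk and Ctsc, are cathepsins that in CiSCs stood at 0.267 and 0.063 of their MEF means. Acp5 stood at 0.0523, close to Ctsc. Ctsk, cathepsin K, the collagen-degrading protease of osteoclasts, which fibroblasts also make, had 18.6 and 17.6 CPM in CiSCs, 43.1 and 43.1 CPM in MSCs, and 70.4 and 65.3 CPM in MEFs. Ctsc, the dipeptidyl peptidase that activates granule serine proteases of immune cells, had 22.4 and 24.7 CPM in CiSCs, 109.8 and 98.98 CPM in MSCs, and 421 and 326 CPM in MEFs. Both were ordered CiSCs, MSCs, MEFs from low to high, with no overlap of groups. In CiSCs over MEFs the log2 fold change was -1.91 ± 0.13 for Ctsk (adjusted p = 9.41e-05, edgeR) and -3.99 ± 0.18 for Ctsc (adjusted p = 2.36e-05, edgeR). In MSCs over MEFs it was -0.65 ± 0.12 for Ctsk and -1.84 ± 0.17 for Ctsc, and the Ctsk call was lost without either MSC library (adjusted p = 0.0754 and 0.0724).

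Set beside the macrophage markers, none of which is among the 38, these 6 genes did not keep 1 common ratio. The marker sum in CiSCs was 0.25% of that in MEFs and the sum in MSCs was 8.93% of it. Per 100 CPM of macrophage markers, Ctss amounted to 2.33 and 3.0 CPM in CiSCs, 15.3 and 14.3 CPM in MSCs and 3.27 and 3.51 CPM in MEFs, so that its ratio in CiSCs over MEFs was 0.786. The same ratio in CiSCs over MEFs was 4.07 for Gpnmb, 22.0 for Acp5, 23.7 for Ctsc and 104 for Ctsk, and none is given for Atp6v0d2 with its 2 reads in CiSCs. In MSCs over MEFs it was 2.85 for Ctsc, 4.37 for Ctss, 6.63 for Ctsk, 9.06 for Gpnmb, 11.9 for Acp5 and 35.4 for Atp6v0d2. For the 32 ubiquitous genes it ran from 3.96 (Ctsz) to 150 (Ctsh) in MSCs over MEFs, a range that held all macrophage-type genes but Ctsc. In CiSCs over MEFs the ubiquitous genes ran from 64.4 (Lgmn) to 735 (Ctsh). Of the macrophage-type ratios given for CiSCs over MEFs, that of Ctsk lay in this range and the others lay below it. The Ctsc ratios depended on the MEF library, since Ctsc per 100 CPM of markers was 6.81 and 6.51 CPM in MSCs and 3.18 and 1.49 CPM in MEFs, and its place below Ctss does not hold against the second MEF library. With Lyz2, the most abundant marker, left out of the sum (a choice made after the values were seen), the macrophage-type ratios in MSCs over MEFs ran from 2.45 for Ctsc to 30.2 for Atp6v0d2. The 8 osteoclast and giant cell markers summed to 52.8 and 58.9 CPM in CiSCs, 36.8 and 35.04 CPM in MSCs and 161 and 144 CPM in MEFs. This sum rested on Mmp9, Nfatc1, Tnfrsf11a and Itgb3, the 4 that could be tested. Calcr, Dcstamp, Ocstamp and Oscar had 0 to 16 reads over both libraries of each group. Of the 4 tested, 3 were higher and 1 lower in CiSCs than in MSCs, against 17.7% and 25.1% of all genes tested. Against MEFs, 3 were lower in CiSCs and 4 in MSCs (21.3% and 20% of all genes). The 2 MEF libraries themselves differed: the second exceeded the first by a median of 1.64-fold over the macrophage-type genes, 1.54-fold over the macrophage markers, 1.17-fold over the ubiquitous lysosomal genes and 1.01-fold over all genes tested with reads in both. In these sets the second library was higher for 4 of 6, 14 of 17, 19 of 32 and 7479 of 14762 genes. Ctsc and Ctsk were the macrophage-type genes that went the other way.

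**Figure D3:**
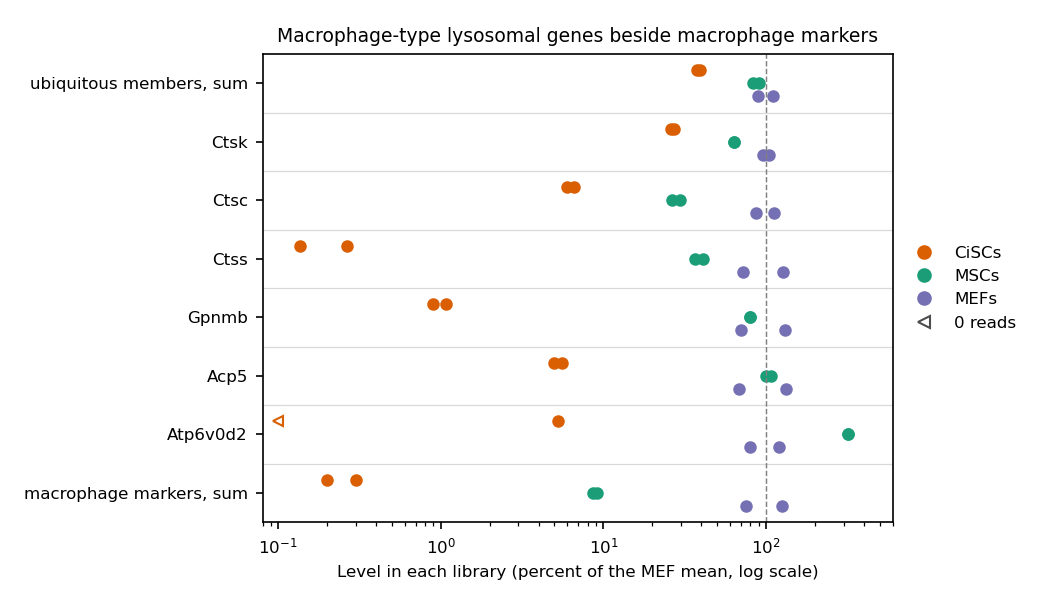
Level of each macrophage-type gene, of the sum of the 32 ubiquitous genes and of the sum of 18 macrophage markers in every library, as a percent of the MEF mean on a log axis; each point is 1 library, and the open triangle is the CiSC library with 0 reads of Atp6v0d2. In MSCs the marker sum is 9.19% and 8.67% of MEFs while Gpnmb, Acp5 and Atp6v0d2 stand at 79.3% or more, and in CiSCs Ctss stands at 0.135% and 0.265%, next to 0.198% and 0.302% for the markers.

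Among the remaining lysosomal endopeptidases, the abundant cathepsins B and D and legumain were lower in CiSCs. Ctsb, a broadly expressed cysteine protease, had 1166 and 991 CPM in CiSCs, 2808 and 3002 CPM in MSCs, and 3485 and 4839 CPM in MEFs. Ctsd, the main aspartic protease of lysosomes, had 689 and 668 CPM in CiSCs, 1987 and 2098 CPM in MSCs, and 3219.6 and 3859.8 CPM in MEFs. Both had CiSCs lowest, MSCs between and MEFs highest without overlap, and the log2 fold change in CiSCs over MEFs was -1.95 ± 0.21 for Ctsb (adjusted p = 0.000615, edgeR) and -2.38 ± 0.16 for Ctsd (adjusted p = 8.98e-05, edgeR). In MSCs over MEFs, Ctsd fell (-0.79 ± 0.15, adjusted p = 0.00701, edgeR) and Ctsb did not pass (-0.52 ± 0.20, adjusted p = 0.0803); the Ctsd call was lost without either MSC library (adjusted p = 0.0832 and 0.0639), and Ctsb was called by DESeq2 (adjusted p = 0.0296). Lgmn, legumain, which cleaves after asparagine and processes other cathepsins, had 105 and 98.4 CPM in CiSCs, 545 and 601 CPM in MSCs, and 543 and 758 CPM in MEFs. MSCs and MEFs overlapped for Lgmn while CiSCs stood apart, at -2.68 ± 0.20 against MEFs and -2.49 ± 0.20 against MSCs (adjusted p = 0.000131 and 0.000136, edgeR).

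Ctsl and Ctso differed from this order. Ctsl, cathepsin L, is a secreted product of Sertoli cells in the rat, where its proenzyme is known as cyclic protein-2. It had 733 and 645 CPM in CiSCs, 2077 and 2655 CPM in MSCs, and 694 and 859 CPM in MEFs, so that MSCs were highest and CiSCs overlapped with MEFs. The log2 fold change was 1.61 ± 0.19 in MSCs over MEFs (adjusted p = 0.000987, edgeR), -0.17 ± 0.19 in CiSCs over MEFs (adjusted p = 0.498, edgeR) and -1.78 ± 0.19 in CiSCs over MSCs (adjusted p = 0.000559, edgeR). Ctso, a less studied cysteine cathepsin, had 7.92 and 9.54 CPM in CiSCs, 44.2 and 40.2 CPM in MSCs, and 20.2 and 14.5 CPM in MEFs. It rose in MSCs over MEFs (1.28 ± 0.20, adjusted p = 0.00306, edgeR) and fell in CiSCs over MEFs (-0.99 ± 0.21, adjusted p = 0.01, edgeR; lost without the first CiSC library, adjusted p = 0.081). Ctsf, another cysteine cathepsin, stood at 35.4 and 39.9 CPM in CiSCs, 34.3 and 43.1 CPM in MSCs, and 37.3 and 43.7 CPM in MEFs and passed in no comparison.

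The exopeptidases, which remove residues from the ends of peptides, included the member with the largest rise in MSCs over MEFs. Ctsh, cathepsin H, an aminopeptidase that also processes surfactant protein in lung, had 31.7 and 26.7 CPM in CiSCs, 219.5 and 232 CPM in MSCs, and 14.01 and 18.97 CPM in MEFs. The groups did not overlap, and the order was MSCs, CiSCs, MEFs from high to low. Its log2 fold change was 3.77 ± 0.20 in MSCs over MEFs (adjusted p = 3.85e-05, edgeR), and it was the single member called higher in CiSCs over MEFs (0.83 ± 0.18, adjusted p = 0.0131, edgeR; 0.68 and 0.109 without the first CiSC library). CiSCs remained below MSCs (-2.95 ± 0.19, adjusted p = 6.54e-05, edgeR).

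The other ubiquitous exopeptidases followed the order CiSCs, MSCs, MEFs in their levels. In CiSCs over MSCs, however, Ctsz and Tpp1 did not pass (-0.42 ± 0.27 and -0.27 ± 0.13, adjusted p = 0.255 and 0.145, edgeR). Both passed with these 2 groups fitted alone. Scpep1 was called there (-0.62 ± 0.16, adjusted p = 0.0199, edgeR), and lost without the second CiSC library or either MSC library. Ctsa, protective protein cathepsin A, which also stabilises beta-galactosidase and neuraminidase, had 276 and 245 CPM in CiSCs, 457 and 533 CPM in MSCs, and 823 and 1379.96 CPM in MEFs. Its log2 fold change was -2.08 ± 0.26 in CiSCs over MEFs (adjusted p = 0.00127, edgeR) and -0.93 ± 0.25 in CiSCs over MSCs (adjusted p = 0.0263, edgeR), the second call being lost in 4 fits with 1 library left out (adjusted p = 0.085 to 0.152). Ctsz, a carboxypeptidase, had 177 and 154 CPM in CiSCs, 220.5 and 221 CPM in MSCs, and 454 and 807 CPM in MEFs. Scpep1, a serine carboxypeptidase, had 71.2 and 54.1 CPM in CiSCs, 95.5 and 97.4 CPM in MSCs, and 188 and 183 CPM in MEFs. Tpp1, the tripeptidyl peptidase whose loss causes a human childhood neuronal ceroid lipofuscinosis, had 201 and 198 CPM in CiSCs, 240.1 and 240.1 CPM in MSCs, and 334 and 388 CPM in MEFs. In CiSCs over MEFs the log2 fold changes were -1.93 ± 0.27 for Ctsz, -1.57 ± 0.16 for Scpep1 and -0.86 ± 0.13 for Tpp1, all past the test (adjusted p = 0.00208, 0.000525 and 0.00281, edgeR). All 3 also fell in MSCs over MEFs, and of these calls that of Scpep1 (-0.95 ± 0.16, adjusted p = 0.00395) held without either MSC library. For Ctsz and Tpp1 the adjusted p without an MSC library was 0.0521 to 0.107.

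Of the 9 glycosidases, which strip sugars from glycoproteins, glycolipids and glycosaminoglycans, 6 fell in CiSCs over MEFs, 5 fell in MSCs over MEFs and 5 fell in CiSCs over MSCs. These shares are 66.7%, 55.6% and 55.6%, against 21.3%, 20% and 25.1% of all genes tested. Man2b1, lysosomal alpha-mannosidase, had 90.8 and 103 CPM in CiSCs, 263 and 284 CPM in MSCs, and 418 and 492 CPM in MEFs. Gusb, beta-glucuronidase, had 46.9 and 48.7 CPM in CiSCs, 121 and 116 CPM in MSCs, and 275 and 191 CPM in MEFs. Gla is alpha-galactosidase A, the enzyme lost in human Fabry disease, and had 19.8 and 18.5 CPM in CiSCs, 43.1 and 41.7 CPM in MSCs, and 78.4 and 91.5 CPM in MEFs. These 3 were ordered CiSCs, MSCs, MEFs with no overlap. Their log2 fold changes in CiSCs over MEFs were -2.23 ± 0.15, -2.28 ± 0.19 and -2.15 ± 0.14 in the same sequence (adjusted p = 9.18e-05, 0.000235 and 8.91e-05, edgeR). Gla also fell in MSCs over MEFs (-1.0 ± 0.14, adjusted p = 0.00181, edgeR), and held there without either MSC library, whereas Man2b1 and Gusb did not (adjusted p = 0.0605 to 0.088).

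Manba and Neu1 showed 2 different profiles. Manba, beta-mannosidase, had 9.30 and 11.8 CPM in CiSCs, 50.1 and 47.9 CPM in MSCs, and 55.2 and 35.2 CPM in MEFs, with MSCs inside the MEF range and CiSCs lowest (-2.10 ± 0.25 against MEFs, adjusted p = 0.000985; -2.21 ± 0.25 against MSCs, adjusted p = 0.000637, edgeR). Neu1, the lysosomal sialidase, had 15.8 and 15.8 CPM in CiSCs, 18.7 and 19.99 CPM in MSCs, and 44.6 and 60.8 CPM in MEFs. For Neu1 it was MEFs that stood apart, with log2 fold changes of -1.73 ± 0.18 in CiSCs over MEFs and -1.44 ± 0.18 in MSCs over MEFs (adjusted p = 0.000545 and 0.00109, edgeR). Hexa, the alpha subunit of beta-hexosaminidase, had a similar profile, with 187 and 175 CPM in CiSCs, 166 and 166 CPM in MSCs, and 284 and 396 CPM in MEFs. Its calls against MEFs (-0.91 ± 0.18 in CiSCs and -1.03 ± 0.18 in MSCs) were lost without either library of the cells compared with MEFs (adjusted p = 0.0511 to 0.0673, edgeR).

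Gaa, acid alpha-glucosidase, the glycogen-degrading enzyme lost in human Pompe disease, had the highest log2 fold change of the 38 in CiSCs over MSCs. It had 481 and 477 CPM in CiSCs, 352 and 392.4 CPM in MSCs, and 421 and 372 CPM in MEFs, so that CiSCs lay above both other groups without overlap, at 0.36 ± 0.13 against MSCs (adjusted p = 0.0716, edgeR) and 0.27 ± 0.13 against MEFs (adjusted p = 0.151, edgeR). It passed against MSCs in 5 alternatives, with log2 fold changes of 0.36 to 0.60. Glb1, beta-galactosidase, the enzyme behind senescence-associated staining, had 63.5 and 64.1 CPM in CiSCs, 79.4 and 89.9 CPM in MSCs, and 79.5 and 83.2 CPM in MEFs and was lower in CiSCs than in MSCs (-0.41 ± 0.13, adjusted p = 0.041, edgeR), a call that was lost when any CiSC or MSC library was left out (adjusted p = 0.105 to 0.277). Idua, alpha-L-iduronidase, had 19.8 and 22.3 CPM in CiSCs, 24.1 and 26.2 CPM in MSCs, and 27.4 and 23.7 CPM in MEFs and passed in no comparison.

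None of the 3 sulfatases, which remove sulfate from glycans and sulfatides, passed the test in any comparison. Arsa, arylsulfatase A, had 67.7 and 66.01 CPM in CiSCs, 70.2 and 75.999 CPM in MSCs, and 76.7 and 64.3 CPM in MEFs. Arsb, arylsulfatase B, had 89.7 and 99.1 CPM in CiSCs, 88.6 and 95.01 CPM in MSCs, and 116 and 57.4 CPM in MEFs. Ids, iduronate 2-sulfatase, had 57.1 and 61.3 CPM in CiSCs, 60.2 and 48.5 CPM in MSCs, and 66.9 and 49.3 CPM in MEFs. In each case the CiSC libraries lay inside the MEF range. By edgeR and by DESeq2, 0 of the 3 were called in each comparison, and 0 had an unadjusted edgeR p under 0.05. Of all genes tested, 40.9% were called in CiSCs over MEFs, 42.5% in MSCs over MEFs and 42.8% in CiSCs over MSCs. Most genes were thus not called either, and 0 of 3 does not set the sulfatases apart. The MEF libraries were far apart for Arsb, which in MSCs was called higher than the second alone (0.64, adjusted p = 0.00222) and lower than the first alone (-0.34, adjusted p = 0.0374), p-values that leave out the spread between MEF libraries.

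Among the lipid enzymes and activators, Gm2a and Psap held the largest differences. Gm2a, the activator protein that presents ganglioside GM2 to beta-hexosaminidase A, had 51.9 and 47.5 CPM in CiSCs, 618 and 724 CPM in MSCs, and 88.2 and 127 CPM in MEFs. The groups did not overlap, MSCs being highest and CiSCs lowest. Its log2 fold change was 2.64 ± 0.21 in MSCs over MEFs (adjusted p = 0.000183, edgeR) and -3.76 ± 0.22 in CiSCs over MSCs (adjusted p = 4.64e-05, edgeR), the largest fall among the ubiquitous members in that comparison. In CiSCs over MEFs it was -1.11 ± 0.20 (adjusted p = 0.00591, edgeR; 0.0539 without the second CiSC library). Psap, the precursor of the saposins, also a secreted product of rat Sertoli cells known as sulfated glycoprotein-1, had 1071 and 1071 CPM in CiSCs, 2243 and 2415 CPM in MSCs, and 2065 and 2688 CPM in MEFs. Here MSCs lay within the MEF range, and CiSCs were lower than both (-1.15 ± 0.17 against MEFs and -1.12 ± 0.17 against MSCs, adjusted p = 0.00267 and 0.00253, edgeR).

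The 3 remaining lipid enzymes changed less. Ppt1, palmitoyl-protein thioesterase, had 152 and 129.7 CPM in CiSCs, 193 and 209 CPM in MSCs, and 226 and 346 CPM in MEFs and was lower in CiSCs than in MEFs (-1.02 ± 0.22, adjusted p = 0.0112, edgeR), a call that was lost without either CiSC library (adjusted p = 0.0505 and 0.0855). Asah1, acid ceramidase, had 127 and 127 CPM in CiSCs, 115 and 117 CPM in MSCs, and 199.7 and 148 CPM in MEFs and was lower in MSCs than in MEFs (-0.59 ± 0.17, adjusted p = 0.0301, edgeR), lost without any CiSC or MSC library (adjusted p = 0.066 to 0.172). Smpd1, acid sphingomyelinase, had 69.7 and 62.3 CPM in CiSCs, 74.2 and 76.5 CPM in MSCs, and 77.9 and 72.1 CPM in MEFs and passed in no comparison.

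Of the membrane proteins that are not macrophage-type, Lamp1 fell in CiSCs, and Lamp2 did not pass with all libraries. Lamp1, an abundant glycoprotein that coats the inner face of the lysosomal membrane, had 565 and 554 CPM in CiSCs, 1057 and 1019.9 CPM in MSCs, and 1219 and 1018 CPM in MEFs. MSCs and MEFs overlapped, and CiSCs stood below both, at -1.0 ± 0.15 against MEFs and -0.89 ± 0.15 against MSCs (adjusted p = 0.00236 and 0.00321, edgeR). Lamp2, its paralog, which is needed for autophagosome fusion and chaperone-mediated autophagy, had 432 and 479 CPM in CiSCs, 631 and 579 CPM in MSCs, and 586 and 456 CPM in MEFs, with log2 fold changes of -0.19 ± 0.17 in CiSCs over MEFs and -0.41 ± 0.17 in CiSCs over MSCs (adjusted p = 0.382 and 0.0913, edgeR). Lamp2 was called lower in CiSCs over MSCs with these 2 groups fitted alone and without either MEF library (adjusted p = 0.00631 to 0.00773, edgeR), in CiSCs over MEFs without the second MEF library (-0.36, adjusted p = 0.0299), and higher in MSCs over MEFs without the first (0.38, adjusted p = 0.0251). Mcoln1, a lysosomal calcium-permeable channel that acts upstream of TFEB, had 36.6 and 36.1 CPM in CiSCs, 32.6 and 38.6 CPM in MSCs, and 48.001 and 59.5 CPM in MEFs and was lower in CiSCs than in MEFs (-0.56 ± 0.16, adjusted p = 0.033, edgeR) and in MSCs than in MEFs (-0.59 ± 0.16, adjusted p = 0.027, edgeR). Both Mcoln1 calls were lost when any CiSC or MSC library was left out (adjusted p = 0.059 to 0.201).

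Tfeb itself, the transcription factor that activates many lysosomal genes when it enters the nucleus, had 14.2 and 12.8 CPM in CiSCs, 11.6 and 12.98 CPM in MSCs, and 8.90 and 16.5 CPM in MEFs. The MEF libraries enclosed all 4 others, and no comparison passed (adjusted p = 0.831, 0.907 and 0.745 for CiSCs over MEFs, MSCs over MEFs and CiSCs over MSCs, edgeR). Leaving out 1 MEF library moved it past the test in opposite directions, at 0.60 in CiSCs over MEFs without the second (adjusted p = 0.0231) and -0.46 in MSCs over MEFs without the first (adjusted p = 0.0323), each against a single MEF library whose spread is taken from the other groups. TFEB is controlled mainly by its location in the cell, which RNA levels do not measure.

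Promoter sequence was examined for a motif already tied to lysosomal genes, so its share among them is a description and not an independent test. The MiT/TFE factors bind the E-box CACGTG, which reads the same on both strands and forms the core of the lysosomal element GTCACGTG (CACGTGAC on the opposite strand). RefSeq promoter windows of GRCm38.p6, from 250 bases before to 50 after each annotated start, were at hand for 34 of the 38 genes, with 41 windows. CACGTG occurred in 11 of these 34 genes, or 32.4%, against 8.09% of all 27025 RefSeq genes with such windows, whether or not they were tested here. The longer motif occurred in 8 of 34, or 23.5%, against 2.55% of all genes. All 11 genes were ubiquitous (37.9% of 29), and 0 of the 5 macrophage-type genes with a window held the hexamer there, which says only that these letters are absent from these windows. In 5 lysosomal genes, or 14.7%, there were at least 2 copies in a window, against 0.681% of all genes, and Lamp1 had 4. The 120 bases before the start are shown for 4 genes with the motif and for the 2 macrophage-type genes that fell most in CiSCs, in the direction of transcription, with each CACGTG in capitals.
Lamp1, chr8:13159041-13159160, plus strand: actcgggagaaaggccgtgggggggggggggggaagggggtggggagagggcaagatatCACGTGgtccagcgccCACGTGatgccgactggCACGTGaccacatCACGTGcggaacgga
Mcoln1, chr8:3500399-3500518, plus strand: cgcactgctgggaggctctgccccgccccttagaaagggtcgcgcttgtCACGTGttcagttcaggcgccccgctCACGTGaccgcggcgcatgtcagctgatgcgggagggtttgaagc
Ctsd, chr7:142387828-142387947, minus strand: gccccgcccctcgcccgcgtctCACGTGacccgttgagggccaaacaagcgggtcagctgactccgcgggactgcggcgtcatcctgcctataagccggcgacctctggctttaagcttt
Glb1, chr9:114400958-114401077, plus strand: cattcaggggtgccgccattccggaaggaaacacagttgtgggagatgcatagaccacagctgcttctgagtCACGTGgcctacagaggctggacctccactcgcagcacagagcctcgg
Ctss, chr3:95526666-95526785, plus strand: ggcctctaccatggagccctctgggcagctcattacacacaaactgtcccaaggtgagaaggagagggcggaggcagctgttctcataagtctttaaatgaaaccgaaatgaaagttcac
Gpnmb, chr6:49036398-49036517, plus strand: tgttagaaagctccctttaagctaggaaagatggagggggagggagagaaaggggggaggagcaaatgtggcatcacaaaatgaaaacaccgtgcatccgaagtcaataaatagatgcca

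The 4 hexamers of Lamp1 lay within 61 bases of the start, and those of Mcoln1 at 71 and 45 bases before it. Ctsd had a second copy 245 bases before the start, beyond the stretch shown. Genes with and genes without the motif were among those called lower. Of the 11 genes with CACGTG, 6 were lower in CiSCs than in MEFs (median log2 fold change -0.56), and of the 23 whose windows lacked it, 17 were lower (median -1.15). In MSCs over MEFs, 1 of the 11 rose and 4 fell, against 2 of the 23 that rose and 10 that fell. In CiSCs over MSCs, 7 of the 11 fell (median -0.89) and 12 of the 23 (median -0.62). Of all genes tested, 21.3%, 20% and 25.1% were called lower in CiSCs over MEFs, MSCs over MEFs and CiSCs over MSCs. Ctsd and Glb1, both with the longer motif, illustrate the spread, with log2 fold changes of -2.38 ± 0.16 and -0.35 ± 0.13 in CiSCs over MEFs.

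**Figure D4:**
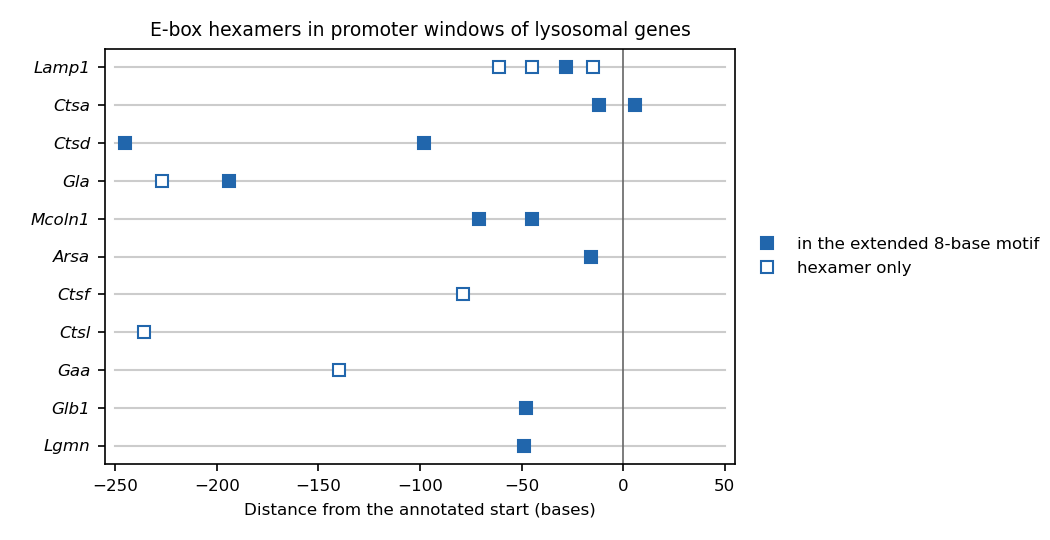
Position of each CACGTG hexamer relative to the annotated transcription start (0, in bases) in the 11 lysosomal genes that have one in the window from 250 bases before to 50 bases after the start. Filled squares lie in the 8-base motif and open squares do not; Lamp1 has 4 copies, and Ctsa, Ctsd, Gla and Mcoln1 have 2 each.

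The wider lysosomal system was examined through 6 lists of 90 further genes, of which 84 could be tested. In CiSCs over MEFs, 56 of the 84 fell (66.7%, against 21.3% of all genes tested) and 6 rose (7.14%, against 19.6%). In MSCs over MEFs, 41 fell (48.8%, against 20%) and 8 rose (9.52%, against 22.5%). In CiSCs over MSCs, 29 fell (34.5%, against 25.1%) and 7 rose (8.33%, against 17.7%). The number of lower calls depended on single libraries, being 37 in CiSCs over MEFs without the second CiSC library, 18 or 19 in MSCs over MEFs without either MSC library, and, in CiSCs over MSCs, 14 without the first CiSC library, 19 without the second and 47 without either MEF library. Of the V-ATPase subunits, 16 of 20 fell in CiSCs over MEFs and the other 4 did not pass. Atp6v0c, the proteolipid of the membrane ring, had 276 and 223 CPM in CiSCs, 328 and 379 CPM in MSCs, and 614 and 1133 CPM in MEFs. Atp6v1a, the catalytic subunit, had 109 and 124 CPM in CiSCs, 134 and 123 CPM in MSCs, and 229.7 and 204 CPM in MEFs. Their log2 fold changes in CiSCs over MEFs were -1.81 ± 0.30 and -0.90 ± 0.14 (adjusted p = 0.004 and 0.00287, edgeR). Atp6ap1, an accessory subunit, fell too (-1.28 ± 0.12, adjusted p = 0.000362, edgeR), and Atp6v0a1, an isoform of the largest membrane subunit, had 125 and 124 CPM in CiSCs, 126 and 134 CPM in MSCs, and 148 and 148 CPM in MEFs. In CiSCs over MSCs 6 of the 20 fell, a share of 30% that is near the 25.1% of all genes tested, and without either CiSC library 9 of the 20 fell in CiSCs over MEFs.

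Other hydrolases went the same way, with 15 of 21 lower in CiSCs than in MEFs and 8 of 21 lower in MSCs than in MEFs. These shares are 71.4% and 38.1%, against 21.3% and 20% of all genes tested. Lipa, lysosomal acid lipase, had 155 and 148 CPM in CiSCs, 119.9 and 118 CPM in MSCs, and 279 and 318 CPM in MEFs (-0.98 ± 0.13 in CiSCs over MEFs, adjusted p = 0.0015, edgeR). Plbd2, a phospholipase B-like protein, did not pass (-0.41 ± 0.15, adjusted p = 0.066, edgeR). Cst3, cystatin C, a secreted inhibitor of cysteine cathepsins that Sertoli cells release, had 179 and 177 CPM in CiSCs, 526 and 509 CPM in MSCs, and 419 and 529 CPM in MEFs. It was lower in CiSCs than in MEFs (-1.41 ± 0.15, adjusted p = 0.000665, edgeR), and it was lower in CiSCs than in MSCs (-1.54 ± 0.15, adjusted p = 0.000376, edgeR). Cstb, the intracellular cystatin B, was also lower in CiSCs than in MEFs (-1.85 ± 0.28, adjusted p = 0.0029, edgeR), and Cst7, an immune cell cystatin, had 0 and 0.0936 CPM in CiSCs, 0.106 and 0 CPM in MSCs, and 13.7 and 16.9 CPM in MEFs. Cst6 had 0.429 and 0.234 CPM in CiSCs, 0.266 and 0.272 CPM in MSCs, and 0.506 and 0.312 CPM in MEFs and was not tested.

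Membrane and sorting genes were less uniform. Of 23 membrane and transport genes, 14 fell and 3 rose in CiSCs over MEFs (60.9% and 13%, against 21.3% and 19.6% of all genes tested). Cd63, a tetraspanin of late endosomes, had 501 and 474 CPM in CiSCs, 529.5 and 529 CPM in MSCs, and 571 and 654 CPM in MEFs and did not pass in any comparison. Npc2, which hands cholesterol to NPC1, had 255 and 242 CPM in CiSCs, 378 and 359 CPM in MSCs, and 410.2 and 514 CPM in MEFs and was lower in CiSCs than in both other groups (-0.90 ± 0.15 against MEFs and -0.57 ± 0.15 against MSCs, adjusted p = 0.00436 and 0.0231, edgeR). Laptm4a, a multispanning protein of late endosomes and lysosomes, had 1009 and 915 CPM in CiSCs, 626 and 649 CPM in MSCs, and 875 and 1109.9 CPM in MEFs, with MSCs below both other groups. Laptm5, a leukocyte protein of the lysosomal membrane, had 1.38 and 2.39 CPM in CiSCs, 91.8 and 84.1 CPM in MSCs, and 693 and 889 CPM in MEFs, with the groups in the same order as the macrophage markers. Tpcn1, a cation channel of endosomes and lysosomes, was chosen after its values were seen because it ran against the rest: it had 534 and 485 CPM in CiSCs, 81.1 and 82.3 CPM in MSCs, and 60.7 and 75.9 CPM in MEFs, and its log2 fold change was 2.90 ± 0.16 in CiSCs over MEFs and 2.64 ± 0.16 in CiSCs over MSCs (adjusted p = 4.27e-05 and 4.93e-05, edgeR). Scarb2, which carries glucocerebrosidase to lysosomes, was chosen in the same way and had 363 and 387 CPM in CiSCs, 125 and 136 CPM in MSCs, and 127 and 130.1 CPM in MEFs (1.54 ± 0.12 in CiSCs over MEFs, adjusted p = 0.000184, edgeR).

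The receptors that deliver hydrolases moved apart. Igf2r, the large mannose 6-phosphate receptor, which also clears IGF2 and is imprinted in the mouse, had 1309.5 and 1729 CPM in CiSCs, 177 and 162 CPM in MSCs, and 501 and 292 CPM in MEFs. CiSCs were highest, MSCs lowest and the MEF libraries far apart, with log2 fold changes of 1.94 ± 0.28 in CiSCs over MEFs and 3.16 ± 0.30 in CiSCs over MSCs (adjusted p = 0.00239 and 0.00029, edgeR). M6pr, the small cation-dependent receptor, had 106 and 109 CPM in CiSCs, 186 and 162 CPM in MSCs, and 228 and 229.6 CPM in MEFs (-1.09 ± 0.13 in CiSCs over MEFs, adjusted p = 0.000971, edgeR). The adaptors Gga1 and Gga2, which load these receptors into vesicles at the trans-Golgi, did not pass in CiSCs over MEFs (-0.31 ± 0.18 and 0.25 ± 0.13, adjusted p = 0.198 and 0.159, edgeR). Among the MiT/TFE factors and their regulators, 5 of 8 fell in CiSCs over MEFs and 5 of 8 in MSCs over MEFs (62.5%, against 21.3% and 20% of all genes tested). Rragd, chosen after its values were seen, was called higher in both (0.98 ± 0.18 and 2.13 ± 0.18, adjusted p = 0.0056 and 0.000219, edgeR). Its call in CiSCs over MEFs was lost without the second CiSC library. Tfe3, a paralog of Tfeb, had 93.8 and 86.6 CPM in CiSCs, 89.7 and 94.04 CPM in MSCs, and 116 and 147 CPM in MEFs (-0.54 ± 0.15 in CiSCs over MEFs, adjusted p = 0.0303, edgeR). Flcn, folliculin, and its partners Fnip1 and Fnip2, which couple amino acid signals to TFEB and TFE3, gave -0.85 ± 0.14, -0.10 ± 0.24 and -1.36 ± 0.15 in the same comparison, and Fnip1 did not pass (adjusted p = 0.00429, 0.758 and 0.000672, edgeR).

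**Figure D5:**
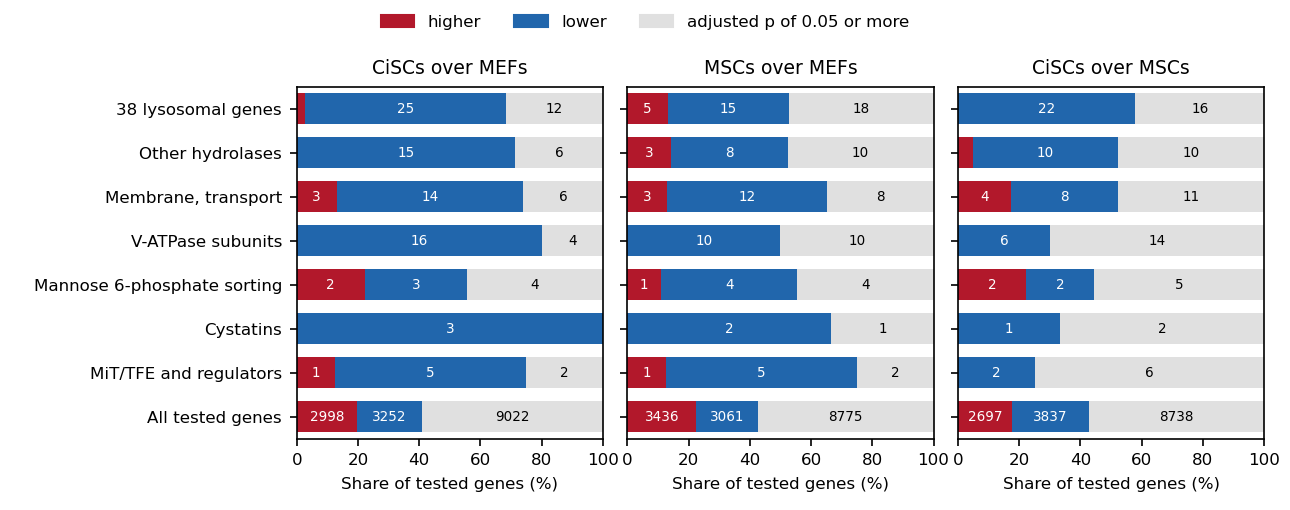
Share of tested genes called higher, lower or neither in the 3 comparisons, for the 38 lysosomal genes, 6 lists of other lysosomal genes and all 15272 genes tested; numbers in the bars are gene counts. In CiSCs over MEFs, lower calls make up 25 of 38 lysosomal genes and 16 of 20 V-ATPase subunits, against 3252 of 15272 genes overall.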

How the data were processed

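Total RNA of 6 cultured samples was sequenced on a BGISEQ-500 instrument, per the labels. The authors deposited 1 table per library of estimated counts per gene. Of all values in a library, those at 0 included, 42.0 to 43.8% are not whole, so reads were shared between features by estimation. HISAT and the mm9 build are named in the submitters' processing notes; the counting tool and annotation are not given in the sources used here. Of the 38 lysosomal genes, 14 had values that were not whole in all 6 libraries. Estimated counts were rounded and fitted with edgeR 4.0.16 (R 4.3.3): TMM scaling, filterByExpr, quasi-likelihood F tests (two-sided), all 6 libraries with 1 mean per group, and Benjamini-Hochberg adjustment over 15272 genes with a threshold of 0.05. Log2 fold changes come from this fit, with SE derived from the F statistic. DESeq2 1.42.0 was an alternative. Symbols came from a RefSeq table (18891 of 20007 identifiers matched). Merged exon lengths are from GENCODE M21. The lysosomal genes, their division and the other lists were chosen with earlier results of these data known. All 38 genes are named; of each further lysosomal list, the 4 genes with the highest mean CPM are named, exceptions are stated, and some of these genes are not reported here. The labels do not say whether replicates are separate cultures, and the spread behind each p-value may be technical only. With 2 libraries a group, an exact permutation test of 1 gene cannot give a p below 0.333. Overlapping genes and near copies cannot be told apart without the counting rules.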

Additional observations from a re-analysis of the deposited data

How the results depend on the processing

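Across 13 alternatives, the calls and directions of the macrophage-type genes in both comparisons of CiSCs were kept in each, as were 20 of 25 lower calls in CiSCs over MEFs, 4 of 15 lower and 4 of 5 higher calls in MSCs over MEFs, and 19 of 22 lower calls in CiSCs over MSCs. Leaving out 1 library moved the number of all genes called to between 3395 and 9487 in CiSCs over MEFs (6250 with all), 3516 and 9745 in MSCs over MEFs (6497) and 3910 and 9369 in CiSCs over MSCs (6534). For the lysosomal genes, the same fits gave 0 to 3 higher in CiSCs over MEFs, 4 to 8 higher and 4 to 20 lower in MSCs over MEFs, and 0 to 1 higher in CiSCs over MSCs. That last count was 1 with library totals, with DESeq2 and with only the 2 groups compared. For the 84 further lysosomal genes, these fits gave 37 to 64 lower in CiSCs over MEFs, 3 to 14 higher and 18 to 51 lower in MSCs over MEFs, and 3 to 10 higher and 14 to 47 lower in CiSCs over MSCs. Library totals gave 5 of them higher in MSCs over MEFs and so did fitting only the 2 groups compared, which for CiSCs over MSCs gave 11 higher and 47 lower. The cause of these shifts was not tested, beyond fewer libraries in the fits that leave one out. Arsb in MSCs over MEFs was 0.08 with all libraries, 0.64 without the first MEF library and -0.34 without the second. Library totals moved the median of all genes to 0.11, -0.10 and 0.21 in CiSCs over MEFs, MSCs over MEFs and CiSCs over MSCs, and the higher share of calls in CiSCs over MSCs to 56.9%, against 41.3%.

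Replicate numbers did not pair the libraries: deviations from the group means correlated at -0.129 for CiSCs with MSCs, -0.215 for CiSCs with MEFs and 0.138 for MSCs with MEFs. With a replicate block, 25 lysosomal genes were lower in CiSCs over MEFs, 14 in MSCs over MEFs (without Asah1, adjusted p = 0.0501, edgeR) and 21 in CiSCs over MSCs (without Glb1, adjusted p = 0.0838, edgeR). Depth limits Atp6v0d2 in CiSCs, with 2 reads; 3 reads over a group correspond to 0.0709 CPM in CiSCs.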
